A study of Bos taurus with 6 samples.

Results

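CXCL14, SERPINA5, LGALS1 and CCN1 encode proteins that act outside the cell, and their transcripts were followed in cultured pieces of ovarian cortex from bovine fetuses, obtained from a slaughterhouse. The Affymetrix bovine array held 24016 probe sets once control probe sets were left out. Gene names were searched only in the authors' deposited table, where each of these 4 genes had 1 probe set. They were found by symbol or title among the 158 rows of the authors' deposited table, which compares the same 2 culture media, so the insulin difference itself chose them and its values are given as a description. Counts past a limma threshold are set beside the share of all probe sets that pass it, and no conclusion is drawn from them. The insulin group was kept for 2 days in ITS+, medium that contains insulin, and the control group for 2 days in TS+, a control medium that holds transferrin and selenous acid together with BSA and linoleic acid. Both groups were cultured, and each had 3 arrays, numbered 1 to 3 in the sample titles. The submitters describe the insulin pieces as enriched for primary follicles, the first growing stage, and the control pieces as enriched for primordial follicles, the resting stage. The labels do not say whether the numbered samples came from separate fetuses, and each array measured RNA of whole pieces rather than of sorted cells.

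A primordial follicle is an oocyte within a single layer of flat granulosa cells, and growth starts when that layer turns cuboidal and the oocyte enlarges. Secreted proteins are among the signals that pass between oocyte, granulosa cells and the surrounding stroma. CXCL14 is a chemokine, a small secreted protein that attracts leukocytes. SERPINA5, also called protein C inhibitor, is a serpin that blocks serine proteases such as activated protein C and plasminogen activators in humans. LGALS1 is galectin 1, a lectin that binds beta-galactosides on surface glycoproteins and leaves the cell without a classical signal peptide. CCN1, formerly CYR61, is a matrix-associated protein that binds integrins and whose gene is a known target of the YAP coactivator.

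With insulin, CXCL14 had 0.204 times and CCN1 0.732 times its control signal, while SERPINA5 had 1.80 times and LGALS1 1.65 times theirs. The plot of signals by array shows that the insulin and control arrays did not overlap for any of the 4 genes. Of the 14409 probe sets bright enough to be tested, 24.2% had groups that did not overlap, 12.3% with insulin higher and 11.9% with insulin lower. In bulk tissue, fewer cells of a type and less RNA per cell cannot be told apart.

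**Figure D1:**
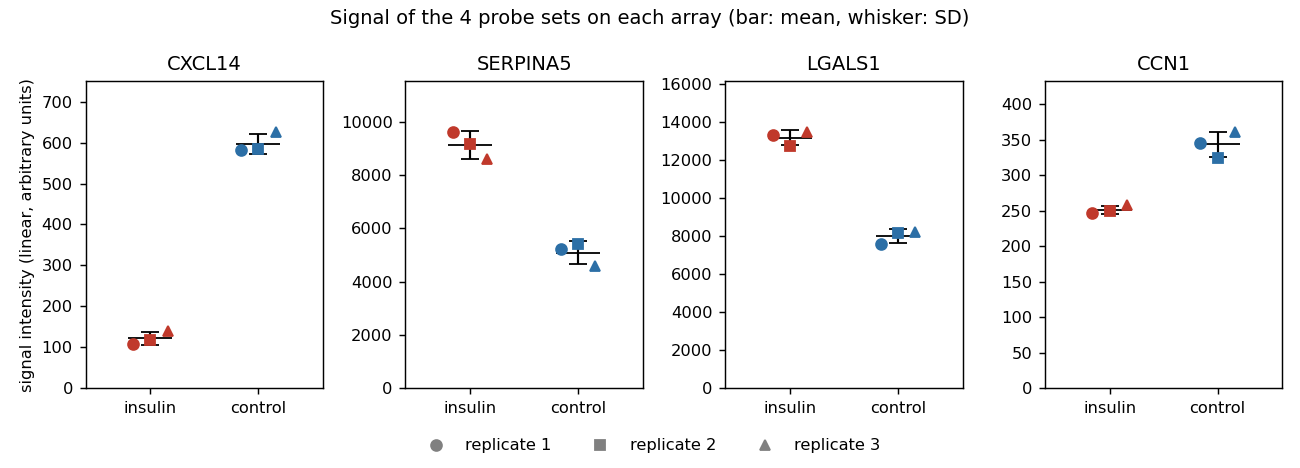
Signal intensity (linear scale, arbitrary units) of each gene's probe set on every array, insulin on the left and control on the right, with the mean as a bar and the SD as a whisker (n = 3 each). CXCL14 averaged 122 in insulin pieces and 597 in control pieces, and SERPINA5 averaged 9125 in insulin pieces and 5076 in control pieces.

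CXCL14 had signals of 108, 118 and 138 on insulin arrays 1, 2 and 3, against 581, 585 and 626 on control arrays 1, 2 and 3. The highest insulin array thus lay 4.20-fold below the lowest control array, while the arrays within a group differed by at most 1.28-fold with insulin and 1.08-fold in control. The means were 122 ± 15.4 with insulin and 597 ± 24.5 in control (SD, n = 3 each), a signal 4.91-fold lower with insulin. On the log2(signal + 16) scale the difference was -2.16, with an SE of 0.13 from the limma fit. All 3 insulin signals were below the median of their own array, and 2 of them were below 127, the mean signal at which dim probe sets were left out, whereas all 3 control signals were above the array median. Because the insulin signals are dim, the size depends on the offset: the log2 difference was -2.29 with a pseudocount of 1 and -1.84 with one of 64. The authors' deposited table gives a log2 ratio of -2.04, the largest fall of its 68 lower rows.

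CCN1, also lower with insulin, showed a much smaller difference. Its signals were 247, 249 and 258 on insulin arrays 1, 2 and 3, against 345, 325 and 361 on control arrays 1, 2 and 3. The insulin arrays were close together, and the nearest arrays of the 2 groups were 1.26-fold apart. Means were 251 ± 5.66 with insulin and 344 ± 18.2 in control (SD, n = 3 each). This came to -0.43 on the log2 scale, and the limma SE was 0.11. The authors' deposited table gives a log2 ratio of -0.41, which ranks 56th by size among its 68 lower rows.

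SERPINA5 had signals of 9610, 9179 and 8586 on insulin arrays 1, 2 and 3, against 5226, 5414 and 4588 on control arrays 1, 2 and 3. Its insulin mean of 9125 ± 514 was 1.80 times the control mean of 5076 ± 433 (SD, n = 3 each). The log2 difference was 0.85, with an SE of 0.12. The nearest arrays of the 2 groups differed by 1.59-fold, against at most 1.12-fold within the insulin group and 1.18-fold within the control group. In the RefSeq annotation of assembly ARS-UCD2.0, 9 of the 10 protein-coding genes that flank SERPINA5 in order of position carry serpin symbols. SERPINA4 lies next to it on one side and SERPINA3-8 on the other. Whether this probe set also reads a related serpin was not tested, since no probe sequence was used here.

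LGALS1 was the other gene with a higher signal with insulin. Its signals were 13324, 12708 and 13453 on insulin arrays 1, 2 and 3, against 7568, 8170 and 8227 on control arrays 1, 2 and 3. The means were 13162 ± 398 with insulin and 7988 ± 365 in control (SD, n = 3 each), a ratio of 1.65. Its difference on the log2 scale was 0.72 (SE 0.11), and the nearest arrays of the groups were 1.54-fold apart. The authors' deposited table gives log2 ratios of 0.72 for LGALS1 and 0.84 for SERPINA5, ranks 47 and 32 of its 90 higher rows.

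The sizes were then compared among the 4 genes within same-numbered pairs of arrays, whose pairing is read from the data. For all 4 genes the insulin array differed from its control array in 1 direction in all 3 pairs, as it did for 48.8% of the probe sets tested. Because the groups did not overlap for these genes, any pairing would give that outcome, so nothing is read from it. SERPINA5 had ratios of insulin over control of 1.84, 1.70 and 1.87 in pairs 1, 2 and 3, and LGALS1 of 1.76, 1.56 and 1.64. The SERPINA5 ratio was the larger in each pair, although the ranges of the 2 genes overlap across pairs, and the difference between the genes was not tested. CXCL14 had ratios of 0.187, 0.201 and 0.221 in pairs 1, 2 and 3, far from the 0.715, 0.768 and 0.714 of CCN1.

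Of all probe sets tested, 2.26% passed a limma adjusted p of 0.05 (325 of 14409), and 3 of the 4 genes did: CXCL14, SERPINA5 and LGALS1. CCN1 did not. By direction, 1.16% of the probe sets passed with a higher signal in insulin, against 2 of the 4 genes, and 1.1% with a lower one, against 1 of the 4. As the insulin difference chose the genes, nothing is read from this count. It was also 3 of 4 with the replicate number as a block, where 6.32% of probe sets passed. The count was 3 without control replicate 1, where 244 of 14409 probe sets passed. It was 1, CXCL14, when any other single array was left out, where 2 to 52 of 14409 passed. When dim probe sets were not filtered it was also 1, CXCL14, and 2 of 24016 probe sets passed. CXCL14 cleared that filter through its control arrays, with means of 122 in insulin pieces and 597 in control pieces. These counts rest on the values that chose the genes and do not rank them.

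The 4 genes were chosen from a table whose rows all have an authors' p below 0.001, and they entered it by different routes. CXCL14 combines a large difference with a spread below the median of all probe sets tested. Only 0.132% of the probe sets tested had a larger absolute log2 difference, and its within-group SD on the log2 scale was 0.119, against a median of 0.192 over all probe sets tested. CCN1 combines a small difference with a small spread. A larger absolute difference was found in 14.1% of the probe sets tested, but its within-group SD was 0.0562, and only 2.26% of probe sets had a smaller one. LGALS1 had a within-group SD of 0.0565 and SERPINA5 one of 0.106. The 153 tested rows of the authors' deposited table had a median within-group SD of 0.0747 and a median absolute log2 difference of 0.729. Against those rows, the spread of CXCL14 and SERPINA5 was above the median, and that of CCN1 and LGALS1 below it. With a p limit, a row of small difference enters only with a small spread, so nothing is read from that pairing in CCN1. In the authors' deposited table, p was 2.07e-05 for CXCL14, 9.84e-05 for LGALS1, 6.07e-04 for SERPINA5 and 7.57e-04 for CCN1, so CCN1 was the nearest of them to the edge of that table.

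**Figure D2:**
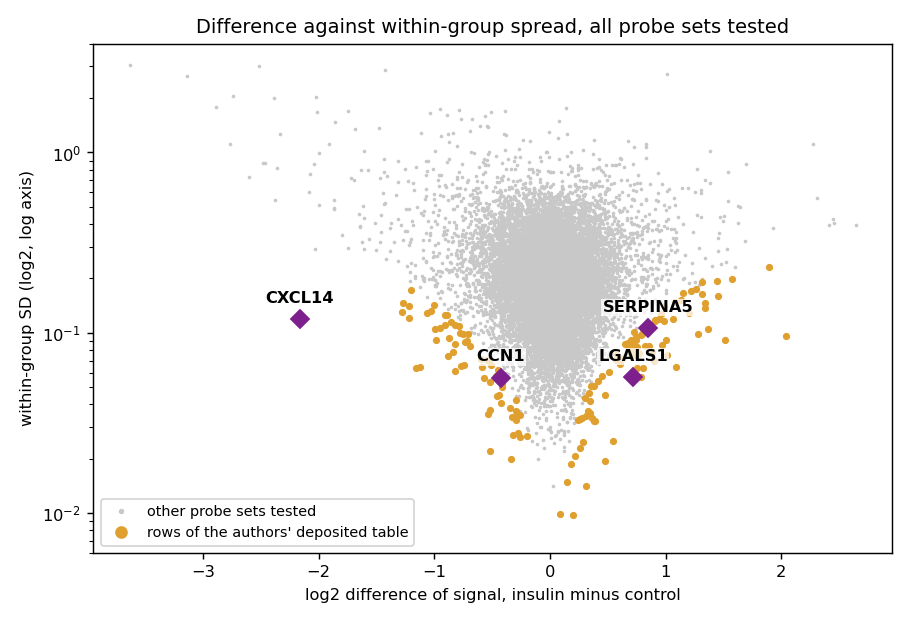
Within-group SD of log2 signal (log axis) against the log2 difference, insulin minus control, for the 14409 probe sets tested, with rows of the authors' deposited table in orange and the 4 genes as purple diamonds. CXCL14 lies far left at -2.16, whereas CCN1 (-0.43) lies near the centre among probe sets of small spread.

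How the spread is estimated bears most on CCN1 and LGALS1, the 2 genes with the smallest spread. Measured by the standard error from its own arrays, 0.0459, the CCN1 difference was -9.28 standard errors from 0. The authors' deposited t for CCN1 is -9.26. Measured by the limma SE, which borrows spread from all probe sets, the CCN1 difference was -3.86 standard errors from 0. For CXCL14 the same 2 values were -22.2 and -17.1, a smaller change. For LGALS1 they were 15.6 and 6.51, and for SERPINA5 9.80 and 6.91. The authors' p limit favoured values far from 0, so these are descriptions and no test is read from them.

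The variation between arrays of a group was examined next, since the direction of an array's deviation from its group mean played no part in choosing the genes. The array numbered 3 had the highest signal in both groups for CXCL14, LGALS1 and CCN1, and the lowest signal in both groups for SERPINA5. Over all probe sets tested, array 3 was highest in both groups for 13.4% and lowest in both for 14.9%. For SERPINA5 array 3 deviated by -0.09 with insulin and by -0.14 in control, on the log2 scale. For CXCL14 array 3 deviated by 0.17 with insulin and by 0.07 in control. These deviations are small beside the insulin differences of the 2 genes. The authors' p limit already favoured that, so nothing is read from it.

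**Figure D3:**
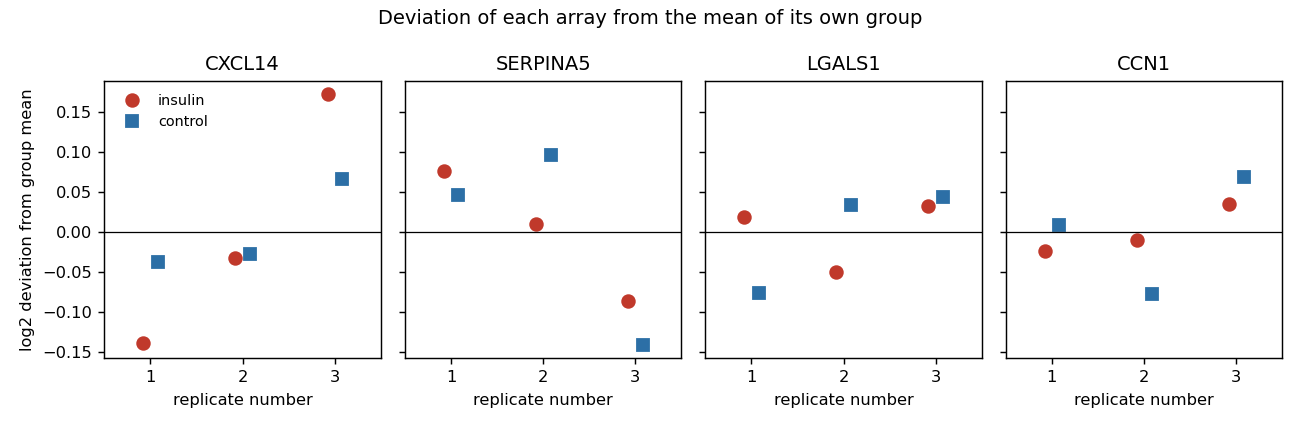
Log2 deviation of each array from the mean of its own group, by replicate number, with insulin as circles and control as squares. Array 3 lies lowest in both groups for SERPINA5 (-0.09 with insulin and -0.14 in control) and highest in both groups for the other genes.

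After subtraction of the group means, SERPINA5 and CCN1 ran opposite to each other over the 6 arrays (Pearson r = -0.91), as did SERPINA5 and CXCL14 (r = -0.78). CXCL14 and CCN1 had an r of 0.59, and LGALS1 had values between -0.35 and 0.35 with the other genes. These are descriptions of 6 arrays with 2 means removed, and the arrays share a replicate number in pairs. The 3 named rows of the authors' deposited table with deviations most like those of SERPINA5 were PCLAF, SLC25A5 and CKAP2 (r = 0.97, 0.97 and 0.96), although SLC25A5 had a negative insulin difference. For CXCL14 they were SAT1, RNF130 and CARHSP1 (r = 0.89, 0.81 and 0.79), for LGALS1 AKIRIN2, EBP and PPM1K (r = 0.96, 0.96 and 0.94), and for CCN1 they included MED31 and KDELR3 (r = 0.89 and 0.87). AKIRIN2 (-0.29) and KDELR3 (0.51) also had insulin differences opposite in direction to those of LGALS1 and CCN1. The other rows named here differed in the same direction as their gene. All the rows named are the best of 97 for each gene. Of all probe sets tested, 0.465% reached the third value for SERPINA5, 0.986% that for LGALS1, 1.44% that for CCN1 and 5.38% that for CXCL14.

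**Figure D4:**
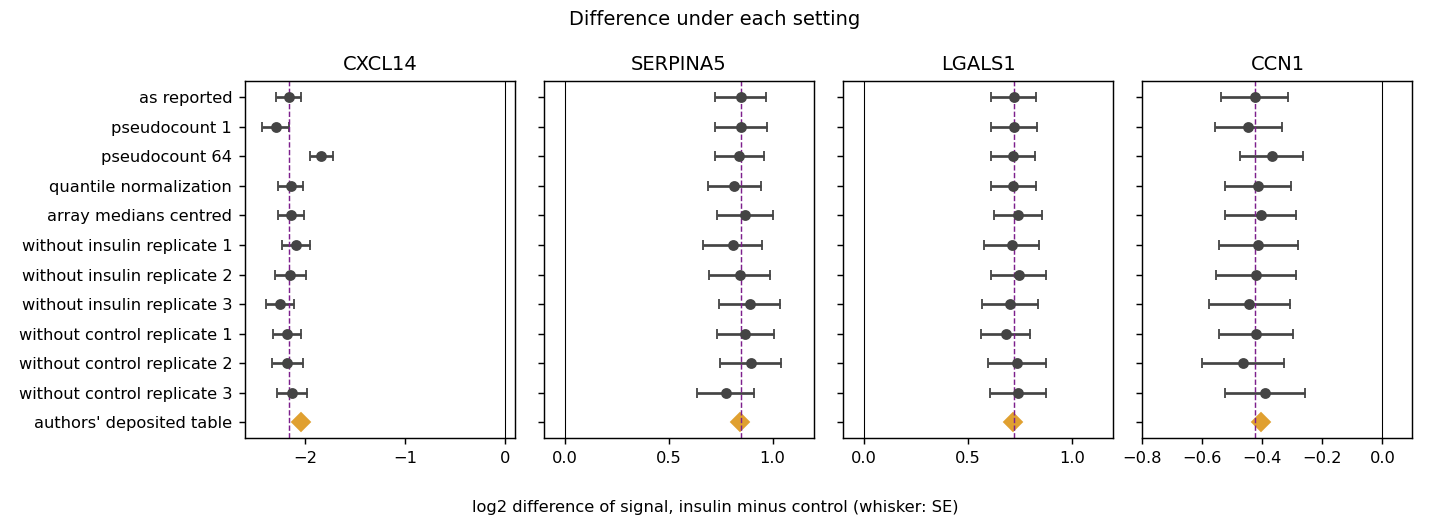
Log2 difference, insulin minus control, of each gene under each setting (points, with the SE as whiskers) and in the authors' deposited table (orange diamonds). The offset moves CXCL14 most, between -2.29 and -1.84, and leaving out any single array keeps it between -2.25 and -2.09.

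The deposited annotation and names say little more about neighbouring pathways. Of the 158 rows of the authors' deposited table, 37 carry a cellular component term, and 2 of those name the extracellular region. Those 2 rows are CXCL14 and CCN1, the pair with lower signal with insulin, whereas SERPINA5 and LGALS1 have no component term in the table. Its function terms name chemokine activity for CXCL14, growth factor binding for CCN1, endopeptidase inhibition for SERPINA5 and sugar binding for LGALS1, all assigned electronically. No other probe set of the array shares a cluster number with any of the 4, and each gene rests here on 1 probe set. Probe sets of the same gene under another cluster number were not searched for. Beyond the 4 genes, lists of chemokines and their receptors, serpins and their proteases, galectins and their partners, CCN and YAP or SRF genes and other secreted factors held 114 genes, of which 0 have a named row, so these pathways were not analysed here. Of 40 markers of oocytes, granulosa, theca, stroma, endothelium, leukocytes, red blood cells and surface epithelium, 0 have a named row. The labelled tissue was therefore not checked against its markers, and the part of a change in cell mix in these results was not tested.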

How the data were processed

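Signal intensities were deposited by the authors as 1 linear value per probe set and array, already scaled. The submitters' processing notes name GCOS, the Affymetrix software, without settings. The authors' deposited table adds, per the file headers, their log2 ratio of insulin over control, the same ratio as a linear fold, a p-value and a t score. Its test is not given in the sources used here. A further 9 columns of values per array, some with day 0 names, were left aside because they map to no sample here. Array medians lay between 196 and 212. The number of arrays, 3 per group, limits the precision.

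Control probe sets and the 40% with the lowest mean signal (below 127) were left out. Signals were analysed as log2(signal + 16), which understates changes of dim probe sets, with limma 3.58.1 in R 4.3.3 (lmFit, eBayes), Benjamini-Hochberg adjustment over all probe sets tested and 0.05 as the threshold. The fit was tested on simulated data. CXCL14 was named from its title, CCN1 through the synonym CYR61 and the others by symbol. Of the 158 rows, 98 could be named, 22 of them by title.

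Same-numbered arrays of the 2 groups deviated together (r of 0.31 to 0.56 over probe sets, against -0.42 to 0.14 for other numbers), so the numbers were taken to pair the arrays. The main fit and the SE values printed above did not use the pairing. With the replicate block, which does, the SE was 0.106 for CXCL14, 0.104 for SERPINA5, 0.105 for LGALS1 and 0.102 for CCN1. Since separate animals or cultures are not stated, p-values cover only sample-to-sample spread, possibly technical. Named genes were the 4 genes, list members with a named row, and for each gene the 3 named rows with the most similar deviations, of which 1 is not reported here. The genes and lists were chosen with earlier results of these data known. Alternatives varied the pseudocount, filter, normalization, block and variance, and left out each array.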

Additional observations from a re-analysis of the deposited data

How the results depend on the processing

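The log2 differences of CXCL14, SERPINA5, LGALS1 and CCN1 kept their direction with other pseudocounts, no filter, quantile normalization, median centring, the replicate block and each array left out. A trended variance leaves the differences as they are, so only the counts are given for it. They moved by more than the within-group SD only with the pseudocount, for CXCL14 (-2.29 with 1 and -1.84 with 64) and CCN1 (-0.37 with 64). Leaving out each array in turn gave -2.25 to -2.09 for CXCL14, 0.78 to 0.89 for SERPINA5, 0.68 to 0.74 for LGALS1 and -0.46 to -0.39 for CCN1. The count of 325 probe sets past the threshold, of 14409 tested, was 2 with no filter, where 24016 were tested. With 14409 tested it was 911 with the replicate block, 548 with a trended robust variance, and 2 to 244 with 1 array left out. Among the insulin arrays it was 2 without replicate 1, 39 without replicate 2 and 52 without replicate 3. Among the control arrays it was 244 without replicate 1, 48 without replicate 2 and 3 without replicate 3. Among the 4 genes, 3 passed with the replicate block, 1 passed with no filter, and 1 to 3 passed with 1 array left out. The block changed no call for them. Each gene is read here from 1 probe set, and CXCL14 with insulin is dim.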
